A study of Mus musculus with 17 samples.

Results

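The integrated stress response lets a cell slow general protein synthesis while it raises the supply of amino acids and of charged tRNAs. Kinases that sense stress or missing amino acids phosphorylate the translation factor eIF2, general initiation falls, and translation of the mRNA of the transcription factor ATF4 rises. ATF4 pairs with other bZIP proteins, such as C/EBP-β, C/EBP-γ and CHOP (encoded by Ddit3), and binds C/EBP-ATF response elements of genes for amino acid synthesis, amino acid transport and tRNA charging. Because much of the control of ATF4 and ATF5 lies in translation, an mRNA array reads their transcripts and targets and not their protein.

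The 38 genes described here were picked by name and fall into 5 groups: 7 transcription factors of the ATF4 pathway, 6 of its stress effectors, 8 genes of amino acid synthesis, 5 amino acid transporters and 12 cytosolic aminoacyl-tRNA synthetases. They are 38 of the 30199 gene names that non-control probes of the array carry, and each was read by its brightest probe. DA1-3b, a murine leukaemia cell line that carries the Bcr-Abl fusion kinase (strain C3H eOuJ), was grown in medium with added non-essential amino acids and transfected with plasmids for murine p65/RelA, a subunit of NF-κB. The constructs were D361E, which cannot be cleaved (n = 4), the N-terminal fragment 1-361 (n = 3), the C-terminal fragment 362-549 (n = 3), the 2 fragments together, written 1-361+362-549 (n = 3), and full-length wild-type p65, the WT cells (n = 4). The design asks which genes differ between the wild type, the mutant that resists cleavage and the fragments that cleavage leaves. The labels name the plasmids and not whether a line is a clone or a pool, samples with empty plasmid were not analysed here, and no measurement of the p65 constructs was used.

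Mouse promoters let the response element be seen before the values. In windows of 300 bases, 250 before to 50 after the gene start (RefSeq, build GRCm38.p6), the letters TGATGNAA were searched on both strands. They stood in the windows of 12 of the 31 members that had one, against 4.51% of 27025 genes. By group these were 2 of 7 transcription factors (Atf3, Nupr1), 3 of 6 effectors (Trib3, Chac1, Vldlr), 1 of 7 synthesis genes (Asns), 1 of 3 transporters (Slc7a11) and 5 of 8 synthetases (Aars, Gars, Iars, Tars, Yars). Because the members were gathered as a known ATF4 programme, the share describes the list and is not a finding of the arrays. The stretches below show 1 example per group and 2 for the synthetases, and Nupr1 is the first because its mRNA changed in the lines with 1-361. Capitals mark the matched letters.
Nupr1: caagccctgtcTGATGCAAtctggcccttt
Trib3: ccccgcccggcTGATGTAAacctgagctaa
Asns: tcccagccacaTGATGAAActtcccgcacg
Slc7a11: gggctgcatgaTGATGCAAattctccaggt
Iars: gcgtctggaggTGATGCAAtactgacagtg
Tars: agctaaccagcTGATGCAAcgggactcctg
The Nupr1 stretch lies at chr7:126625562-126625591 on the plus strand, and the upstream end of its capitals is at position -110 from the gene start. Those of Trib3 (chr2:152344028-152344057, plus) and Asns (chr6:7693214-7693243, minus) have it at 14 and -23. Those of Slc7a11 (chr3:50443642-50443671, plus), Iars (chr13:49682126-49682155, minus) and Tars (chr15:11399655-11399684, plus) have it at -47, 7 and -15. The 6 differ only in the free base of the motif and in the bases around it. The kappa B consensus, the site that NF-κB binds, was matched on both strands in 2 of the 31 windows (Atf5 and Iars) and in 9.55% of genes. The Atf5 match is shown because Atf5 is among the members that changed, and it lies at chr7:44815671-44815702 on the plus strand, upstream end at -33.
Atf5: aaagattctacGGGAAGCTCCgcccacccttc
A match in letters is not a measured binding site. Cebpb and Eprs, which also changed, have a window without either motif, and Cth has no window in the table.

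Levels below are log2 of the processed probe signal minus the 75th percentile of the array, so 0 means as bright as that percentile, and levels of different genes are not compared. A member was tested if every array of 1 or more constructs read it well above background, which held for 33 of the 38. Atf3, Chac1 (which degrades glutathione), Stc2 (a secreted glycoprotein) and the cationic amino acid transporter Slc7a3 were well above background on 0 of 17 arrays, and Vldlr (a lipoprotein receptor) on 3. Cth, Cbs and Slc7a11 were dim, being well above background on 12, 10 and 11 arrays. Of 11 haematopoietic markers read, 8 were well above background on all 17 arrays and Kit on none. The 75th percentile of the signal ran between 635.8 and 1214 across arrays.

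The arrays fall into rounds by the number in their titles (2 to 6, 8 to 12, 14 to 18, then 20 and 21), and the 5 arrays numbered 14 to 18, 1 of each construct, stood apart from the rest in many members. Results are therefore given with and without these 5, a choice made after the values were seen. The arrays lie on 6 slides, each with at least 2 constructs, so slide was also fitted as a block. Values given below with slide as a block are from a fixed block, which leaves fewer degrees of freedom. With slide as a random block the correlation within slides was -0.05, and the member calls lost with the fixed block were kept. In 1-361 cells against WT, limma's adjusted p was then 0.0261 for Eprs, 0.0157 for Atf5 and 0.00389 for Cth. The labels do not say that replicates came from separate cultures, so the p-values rest on array-to-array spread that may be technical. The number of arrays per construct limits the precision.

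Of the 33 members tested, 5 differed across the 5 constructs by limma's F-test with Benjamini-Hochberg adjustment, where 8.91% of 15202 genes did. These were the transcription factor genes Nupr1, Atf5 and Cebpb, the cysteine synthesis gene Cth and the synthetase gene Eprs. Their probes lie, by the annotation in the files (mm9), at chr7:133766978-133767037 (Nupr1, minus strand), chr7:52067627-52067686 (Atf5, minus), chr2:167515828-167515887 (Cebpb, plus), chr3:157557667-157557726 (Cth, minus) and chr1:187252093-187252152 (Eprs, plus), and exon or UTR annotation was not used here. Against WT cells, 4 members were lower in 1-361 cells (Nupr1, Cth, Atf5, Eprs), where 0.717% of all genes were called. In 1-361+362-549 cells 4 were lower (Cth, Nupr1, Atf5, Cebpb), where 5.13% of all genes were called. With title-number round as a block, a fit described with the processing steps, 11 members were called in 1-361+362-549 cells against WT, 8 lower and 3 higher, where 30.7% of all genes were called. The 7 added by it were Ddit3, Trib3, Sesn2 and Sars, which were lower, and Nars, Iars and the probe named Phgdh, which were higher. No member was called in D361E cells (0.487% of all genes called) or in 362-549 cells (0.724%) against WT. At an unadjusted p under 0.05 limma gave 1 lower member in D361E cells (Atf5, with 5.00% of all genes at that p) and 2 in 362-549 cells (Atf5 and Psph, with 8.85%), and no higher one. Atf4 itself was not called: its brightest probe differed from WT by between -0.26 and 0.02 in the 4 comparisons. Its other probe, well above background on 17 arrays, differed by -0.39 in D361E, -0.44 in 1-361, -0.34 in 362-549 and 0.08 in 1-361+362-549 cells. That probe was not tested by itself.

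Nupr1, a small chromatin-associated protein induced by many stresses, was low in both lines that received 1-361. Its level was -3.09, -3.21 and -3.53 in 1-361 cells and -3.51, -3.39 and -3.13 in 1-361+362-549 cells. D361E cells gave -1.19, -1.39, -0.99 and -0.87, and 362-549 cells -0.47, -0.62 and -0.16. WT cells gave -0.24, -0.80, -0.25 and -1.70. Every array of the 2 lines with 1-361 was below every array of the other 3 lines, and 1 WT array was lower than the other WT arrays. Against WT, Nupr1 was 5.76-fold lower in 1-361 cells (log2 difference -2.53 ± 0.28 SE, adjusted p = 0.000132) and 6.03-fold lower in 1-361+362-549 cells (-2.59 ± 0.28, adjusted p = 3.03e-05). With slide as a block the differences were -2.71 (adjusted p = 0.00325) and -2.72 (adjusted p = 0.00322). Within slides they ran between -3.28 and -2.84 for 1-361 cells (2 slides) and were -3.14 for 1-361+362-549 cells (1 slide). Without the arrays numbered 14 to 18 they were -2.24 (adjusted p = 0.019) and -2.53 (adjusted p = 0.00209). D361E cells and 362-549 cells differed from WT by -0.36 ± 0.26 (adjusted p = 1) and 0.33 ± 0.28 (adjusted p = 0.866).

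The other comparisons of Nupr1 set the lines with 1-361 apart from the rest, while no difference was called between those 2 lines. Nupr1 was lower in 1-361 cells than in D361E cells (-2.17 ± 0.28, adjusted p = 0.000821) and than in 362-549 cells (-2.86 ± 0.30, adjusted p = 0.000119). It was also lower in 1-361+362-549 cells than in D361E cells (-2.23, adjusted p = 8.58e-05) and than in 362-549 cells (-2.93, adjusted p = 1.35e-05). With slide as a block these 4 adjusted p ran between 0.000819 and 0.00804. Between 1-361+362-549 and 1-361 cells the difference was -0.07 ± 0.30 (adjusted p = 0.903), with a 95% interval of -0.71 to 0.58.

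Cth encodes cystathionine γ-lyase, which releases cysteine from cystathionine. It was well above background on none of the 3 arrays of 1-361+362-549 cells, 1 of 3 of 1-361 cells, and all arrays of the other lines. Its level was -5.70, -5.40 and -4.20 in 1-361 cells and -7.39, -7.53 and -7.06 in 1-361+362-549 cells. D361E cells gave -4.07, -3.86, -3.78 and -3.28, 362-549 cells -4.09, -3.65 and -3.33, and WT cells -3.27, -3.26, -3.15 and -3.08. The 1-361+362-549 arrays were the lowest, and the 1-361 arrays lay between them and all others, the highest of them close to the lowest of D361E and 362-549 cells. Because its values there were not well above background, a lower bound is given: Cth was at least 4.08-fold lower in 1-361+362-549 cells than in WT (fitted difference -4.14 ± 0.30, adjusted p = 2.77e-07). In 1-361 cells, where 1 of 3 arrays read it well above background, the fitted difference was -1.91 ± 0.30 (adjusted p = 0.00333), and no fold is given. With slide as a block the adjusted p was 0.000431 for the fragments together and 0.09 for 1-361 alone (difference -1.90), so the call for 1-361 was lost. Within slides the differences were -4.26 for the fragments together and between -2.56 and -0.94 for 1-361. Under normexp background correction neither was called (-1.12, adjusted p = 0.487, and -1.08, adjusted p = 0.998). Without the arrays numbered 14 to 18 both were (-4.25, adjusted p = 6.58e-06, and -2.35, adjusted p = 0.00161). With 1-361 and WT alone in the fit the call for 1-361 was also lost (adjusted p = 0.064). Cbs, which makes the cystathionine that Cth uses, differed by 0.93 and 0.91 and was not called.

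Atf5, a bZIP factor whose translation also responds to eIF2 phosphorylation, was lower than WT in every other line by its array values. Its level was 3.56, 3.43, 2.96 and 3.39 in D361E cells, 3.16, 2.97 and 2.96 in 1-361 cells and 3.28, 3.12 and 3.28 in 362-549 cells. It was 2.79, 2.66 and 2.10 in 1-361+362-549 cells and 3.95, 3.82, 4.19 and 3.92 in WT cells. No array of any other construct reached the lowest WT array. Groups did not overlap in this way for 3.63% of genes in D361E, 10.5% in 1-361, 9.74% in 362-549 and 16.6% in 1-361+362-549 cells against WT. Atf5 fell by 0.94 in 1-361 cells (SE 0.18, adjusted p = 0.0153) and by 1.45 in 1-361+362-549 cells (SE 0.18, adjusted p = 7.72e-05). The differences of -0.63 ± 0.16 in D361E cells (adjusted p = 0.156) and -0.74 ± 0.18 in 362-549 cells (adjusted p = 0.09) missed the threshold. With slide as a block the adjusted p was 0.418 in 1-361 cells (difference -0.90) and 0.037 in 1-361+362-549 cells (-1.33), and within slides the differences were -1.03 and -0.99 for 1-361 and -1.29 for the fragments together. Without the arrays numbered 14 to 18 Atf5 was called in 1-361 (-0.83, adjusted p = 0.0168), 1-361+362-549 (-1.18, adjusted p = 0.000471) and 362-549 cells (-0.70, adjusted p = 0.0434). In 1-361 cells the call was lost without 1-361 replicate 1 (adjusted p = 0.103), 1-361 replicate 2 (0.096) or WT replicate 3 (0.0504), and the count of called members in that comparison was then 2. The call in 1-361 cells was also lost with normexp background correction (-0.87, adjusted p = 0.472).

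Cebpb, which encodes the ATF4 partner C/EBP-β, was low in a single line. Its level was 2.47, 2.30 and 2.94 in 1-361+362-549 cells. It ran between 3.83 and 4.30 in D361E cells, 3.62 and 3.89 in 1-361 cells, 3.65 and 4.06 in 362-549 cells and 3.67 and 4.08 in WT cells. Every 1-361+362-549 array was below every other array. Cebpb fell by 1.26 against WT (SE 0.18, adjusted p = 0.000373; slide block -1.29, adjusted p = 0.0253; within 1 slide -1.36; without the arrays numbered 14 to 18 -1.36, adjusted p = 0.00144). It was also lower in 1-361+362-549 cells than in D361E cells (-1.58, adjusted p = 2.78e-05), 1-361 cells (-1.22 ± 0.19, adjusted p = 0.000961) and 362-549 cells (-1.25, adjusted p = 0.000595). With slide as a block the last of these had an adjusted p of 0.0568 and no slide held both lines. The single fragments differed from WT by -0.04 (1-361) and -0.01 (362-549).

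Eprs, the enzyme that charges tRNAs with glutamate and with proline, was the synthetase called against WT in the fit without a block. Its level was -0.18, -0.17 and -0.10 in 1-361 cells and 0.45, 0.43, 0.63 and 0.37 in WT cells. D361E cells gave 0.22, 0.23, 0.18 and 0.54, 362-549 cells 0.34, 0.45 and 0.28, and 1-361+362-549 cells 0.63, 0.79 and 0.60. The 1-361 arrays were the lowest and the 1-361+362-549 arrays, which overlap WT, included the highest. Eprs fell by 0.62 in 1-361 cells against WT (SE 0.12, adjusted p = 0.0199), a 1.54-fold lower level. The call was lost with slide as a block (-0.64, adjusted p = 0.227; within slides -0.82 and -0.54), without the arrays numbered 14 to 18 (-0.59, adjusted p = 0.125), and without any 1-361 array or WT replicate 1, 2 or 3 (adjusted p 0.0572 to 0.116, differences between -0.65 and -0.56). It was also lost without scaling (-0.85, adjusted p = 0.109), with normexp background correction (-0.58, adjusted p = 0.457), without the filter on dim probes (adjusted p = 0.0785) and with 1-361 and WT alone in the fit (adjusted p = 0.128). Eprs was higher in 1-361+362-549 cells than in 1-361 cells by 0.82 ± 0.13 (adjusted p = 0.000819; slide block 0.89, adjusted p = 0.0127).

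**Figure D1:**
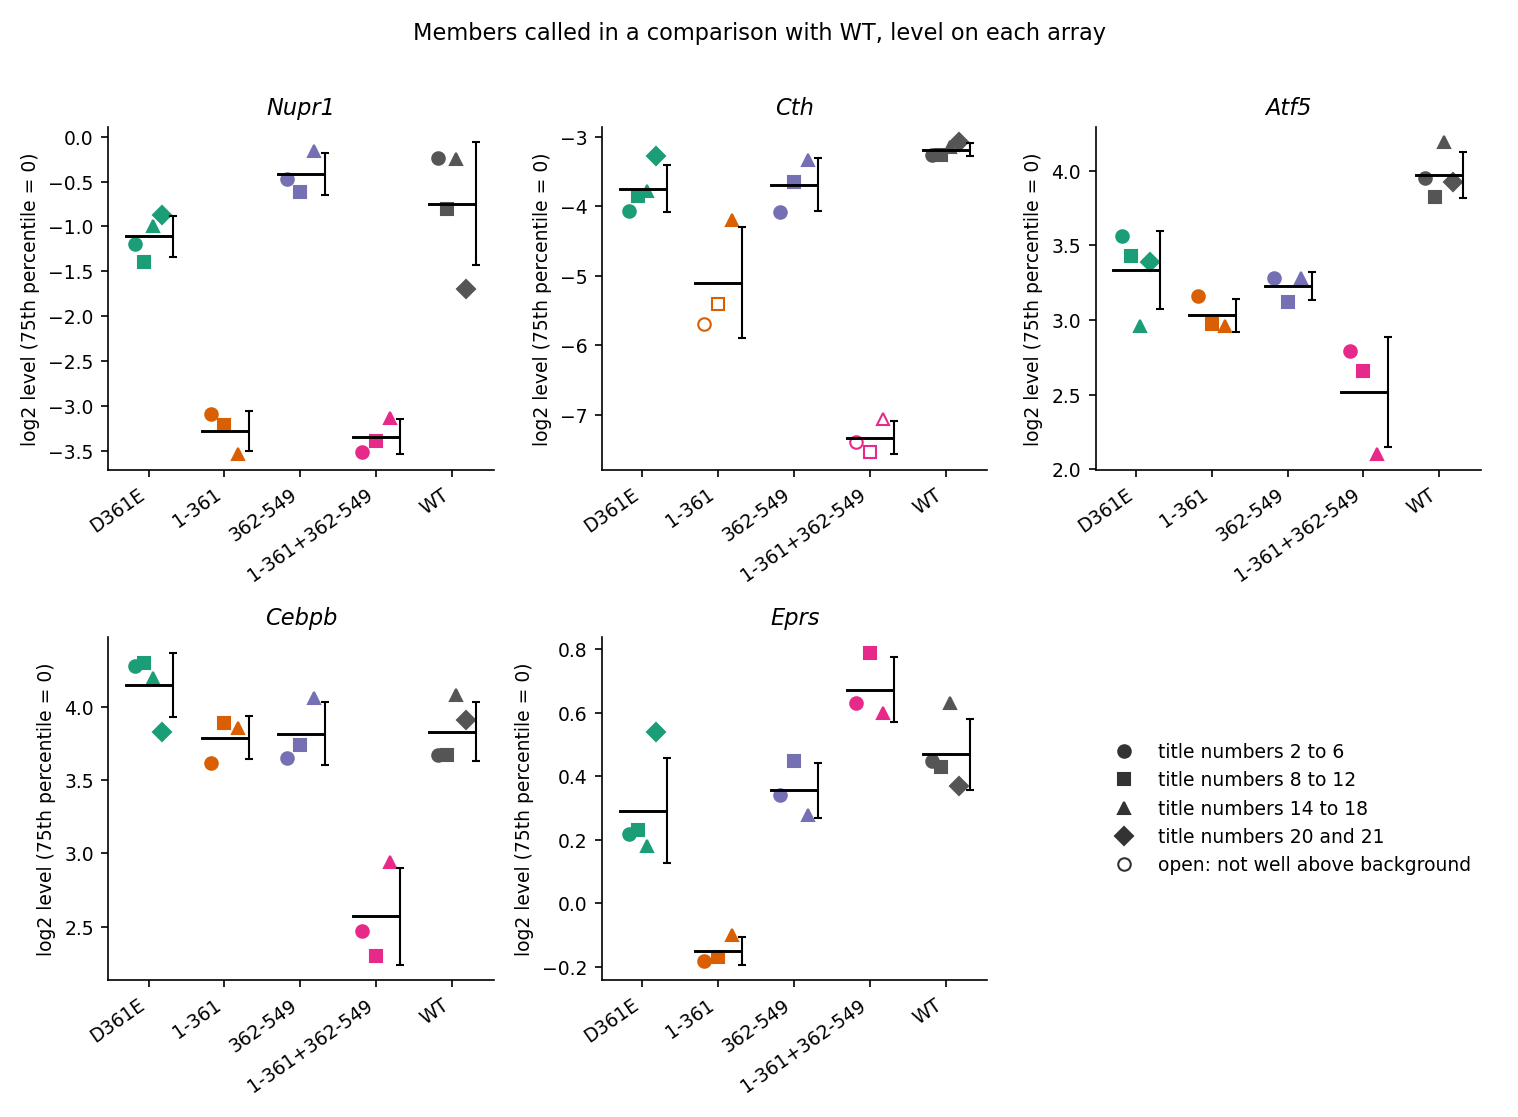
Level of Nupr1, Cth, Atf5, Cebpb and Eprs on each array (log2 of signal relative to the 75th percentile of its array) by construct, with WT at the right. Marker shapes are the title-number rounds, open markers are not well above background, and bars and whiskers are the mean and SD. Nupr1 is low in both lines with 1-361, Cth and Cebpb are lowest in 1-361+362-549 cells, and all WT arrays of Atf5 (3.82 to 4.19) lie above the others.

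Markers of other blood cell types moved between the same lines. The summed signal of 8 mast cell and basophil markers, in units of the array's 75th percentile, was 2.90 to 4.00 in D361E, 6.04 to 10.2 in 1-361, 3.35 to 5.64 in 362-549 and 0.573 to 0.61 in 1-361+362-549 cells, against 7.37 to 12.8 in WT cells. Ms4a2 and Mcpt1 were not well above background on any array. Of 5 tested markers, 2 fell in D361E cells (Cpa3 and Cma1), 1 rose and 2 fell in 1-361 cells, 1 fell in 362-549 cells (Cma1) and 4 fell in 1-361+362-549 cells (Cpa3, Fcer1a, Mcpt4 and Cma1) against WT. The summed signal of 6 megakaryocyte markers was 78.1 to 101 in 1-361 cells and 110.1 to 183 in 1-361+362-549 cells, against 39.0 to 51.8 in WT cells. The same sum was 41.2 to 69.8 in D361E cells and 31.8 to 38.1 in 362-549 cells. Of 4 tested megakaryocyte markers, Pf4 was the 1 called in 1-361 and in 1-361+362-549 cells, where it rose. In each of these lines 1 of the 4 was below 0 (-0.28 and -0.40). The sum of 7 erythroid markers, of which Alas2 and Ahsp were dim on all arrays, was 20.7 to 50.4 in D361E, 35.4 to 37.9 in 1-361, 43.5 to 85.1 in 362-549 and 16.2 to 24.0 in 1-361+362-549 cells, against 10.5 to 20.3 in WT cells. Hbb-b1 rose in all 4 lines against WT, but the erythroid markers did not move as 1. Of 4 tested, 2 rose and 1 fell (-0.84) in 1-361+362-549 cells, the calls being Hbb-b1, Klf1 and Epor. In 1-361 cells 2 of the 4 were below 0, the lowest at -0.67. Of 5 T cell markers tested, Cd3d and Cd3g rose in 1-361 cells and fell in 1-361+362-549 cells, and Cd3g rose in 362-549 cells. The sum of 8 T cell markers was 5.71 to 7.51 in D361E, 6.56 to 8.67 in 1-361, 5.50 to 6.75 in 362-549 and 3.15 to 5.74 in 1-361+362-549 cells, against 4.45 to 6.35 in WT cells. The sum of 7 B cell markers was 2.061 to 2.496 in D361E and 2.345 to 2.699 in 1-361+362-549 cells, against 1.457 to 1.951 in WT cells. It was 1.518 to 1.937 in 1-361 and 1.333 to 1.756 in 362-549 cells. Of 2 tested B cell markers 0 were called, and 2 were higher in 1-361+362-549 cells at an unadjusted limma p under 0.05. The summed signal of the haematopoietic markers of the labelled cell line was 96.3 to 131 in 1-361+362-549 cells, against 152.4 to 168.5 in WT cells, with 7 of 8 tested markers below 0 and 3 called there (Csf2rb, Csf2rb2 and Lcp1, 1 higher and 2 lower). In 1-361 cells the sum was 135.7 to 140.7, also below every WT array. There 0 markers were called and 2 were lower at an unadjusted limma p under 0.05. The sum was 146.8 to 163.8 in D361E cells and 141.7 to 157.6 in 362-549 cells. The part of these markers in the differences of Nupr1, Cth, Atf5, Cebpb and Eprs was not tested. In bulk RNA fewer cells that express a gene and less of its RNA per cell cannot be told apart.

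The direct comparison of the fragments together with each single line added 3 members, all higher in 1-361+362-549 cells. None of them was called against WT, though Iars (0.48, adjusted p = 0.0121) and the probe named Phgdh (0.45, adjusted p = 0.0133) were with title-number round as a block. Psph, the last enzyme of serine synthesis, had levels of -0.83, -0.98 and -0.76 in 1-361+362-549 cells. It ran between -1.77 and -1.25 in D361E cells, -1.57 and -1.22 in 1-361 cells, -1.81 and -1.36 in 362-549 cells and -1.47 and -1.06 in WT cells. Psph was thus highest on the 1-361+362-549 arrays, though the nearest WT arrays were close. It was higher than in D361E cells by 0.59 ± 0.16 (adjusted p = 0.0289) and than in 362-549 cells by 0.74 ± 0.17 (adjusted p = 0.0113). With slide as a block neither was called (adjusted p = 0.158 and 0.339), nor without the arrays numbered 14 to 18 (0.0605 and 0.0519). The first was also lost without any 1-361+362-549 array or D361E replicate 1 or 2.

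Iars, which charges tRNAs with isoleucine, had levels of 3.76, 3.84 and 3.40 in 1-361+362-549 cells. It ran between 2.73 and 3.30 in D361E cells, 2.81 and 3.05 in 1-361 cells, 2.93 and 3.45 in 362-549 cells and 3.18 and 3.46 in WT cells. Its lowest 1-361+362-549 array lay within the range of 362-549 and of WT cells. Iars was higher than in D361E cells by 0.72 ± 0.17 (adjusted p = 0.0133; slide block 0.066) and than in 1-361 cells by 0.70 ± 0.18 (adjusted p = 0.0253; slide block 0.11), and within slides both differences were positive. Both calls were lost without 1-361+362-549 replicate 1 or 2, and the second also without any 1-361 array. Phgdh encodes the first enzyme of serine synthesis. The brightest probe that carries its name is placed by the file at chr17:53337968-53338027 (mm9), while the RefSeq gene table (GRCm38.p6) has the Phgdh gene on chromosome 3, so the values of this probe may not be those of Phgdh. It was higher than in 1-361 cells by 0.53 ± 0.14 (adjusted p = 0.0233; slide block 0.133), with levels of 5.98, 5.79 and 5.58 in 1-361+362-549 cells against 5.24, 5.20 and 5.31 in 1-361 cells. With the mean of the 3 probes named Phgdh the difference was 0.44 (adjusted p = 0.0642). The call was also lost without 1-361+362-549 replicate 1 or 2 or any 1-361 array.

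Counts of members called between the lines other than WT are best read against the share of all genes called. Against D361E cells, 2 members were lower in 1-361 cells (Nupr1 and Cth, with 1.03% of genes called), and Cth, well above background on 1 of 3 arrays of 1-361 cells, had a fitted difference of -1.36 (adjusted p = 0.0394). That call was lost with slide as a block (adjusted p = 0.281), with normexp background correction (-0.49, adjusted p = 1) or without any of 11 arrays. In 362-549 cells against D361E cells 0 members were called by limma (1.31% of genes), and 1 was higher at an unadjusted p under 0.05 (Nupr1, with 9.95% of genes at that p). In 1-361+362-549 cells against D361E cells 4 were lower and 2 higher (9.71% of genes), the lower ones being Cth, Nupr1, Cebpb and Atf5. Atf5 (-0.82, adjusted p = 0.00704) was lost with slide as a block (adjusted p = 0.069), with 1-361+362-549 and D361E alone in the fit (adjusted p = 0.104) and without scaling of the arrays (-0.41, adjusted p = 0.207). Without D361E replicate 4 the count of members was 9. With 1 array left out in turn, 859 to 2738 genes in all were called. Without scaling the count of members was 7 higher and 3 lower, with 2605 of 15202 genes called, and with title-number round as a block 10 higher and 4 lower (39.8% of genes). Round was not taken as pairing for this comparison, since 1 of 3 same-round pairs of arrays correlated above 0.1. Between 1-361 and 362-549 cells Nupr1 was the call (0.631% of genes), and Cth (-1.41, adjusted p = 0.0652) was called as well without 1-361 replicate 2 and with title-number round as a block (-1.41, adjusted p = 0.00797, with 1.71% of genes). Against 1-361 cells, 1-361+362-549 cells had 2 members lower and 3 higher (11.2% of genes), and the count ran between 3 and 8 with 1 array left out (8 without 1-361+362-549 replicate 3, 3 without replicate 1 or 2 or any 1-361 array). Across those fits 590 to 3878 genes in all were called. Without scaling 7 members were higher and 2 lower (2124 genes called), and with round as a block 12 were higher and 3 lower (37.0% of genes). Round was not taken as pairing here either, with 2 of 3 same-round pairs above 0.1. Against 362-549 cells, 1-361+362-549 cells had 4 members lower and 1 higher (14.6% of genes), and 10 members in either direction without 1-361+362-549 replicate 3. With 1 array left out in turn, 875 to 4029 genes in all were called there. Without scaling the direction of the counts turned, with 12 higher and 3 lower (5456 genes called). With round as a block 8 were higher and 6 lower (39.9% of genes), the added ones being Eprs, Psat1, Tars, Nars, Wars, Iars and the probe named Phgdh (higher by 0.32 to 0.54) and Sesn2 and Sars (-0.67 and -0.41). In that comparison Atf5 (-0.71 ± 0.19, adjusted p = 0.0212) was lost without 362-549 replicate 1 or 3 with slide as a block (adjusted p = 0.403), with normexp background correction (adjusted p = 0.117) and without scaling (-0.11, adjusted p = 0.757).

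The medians of the 5 groups of genes are set beside the median of all genes, which was between 0.03 and 0.05 in each comparison with WT. Whether the groups of genes differ from each other was not tested, and each is followed by its range with 1 array left out. The transcription factors had median differences of -0.31 in D361E, -0.30 in 1-361, -0.16 in 362-549 and -1.27 in 1-361+362-549 cells, with 2 of 6 tested members lower in 1-361 and 3 of 6 in 1-361+362-549 cells. With 1 array left out these medians ran between -0.46 and -0.13, -0.57 and -0.19, -0.29 and 0.01, and -1.39 and -0.89. Ddit3, whose product CHOP acts late in the response, differed from WT by -0.75, -0.23, -0.60 and -1.28 in that order of lines, without a call. With title-number round as a block it was called in 1-361+362-549 cells (-1.56 ± 0.44, adjusted p = 0.021). Cebpg, the other C/EBP partner of ATF4 listed, differed by -0.05 to -0.34 and was not called either.

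The 3 effectors tested had medians of -0.23, -0.15, 0.15 and -0.35 in the same order, and none was called. With 1 array left out the medians ran between -0.31 and 0.07, -0.29 and 0.11, 0.07 and 0.34, and -0.53 and -0.17, so the sign in D361E and 1-361 cells turned with the arrays used. With title-number round as a block Trib3 (-0.80, adjusted p = 0.032) and Sesn2 (-0.42, adjusted p = 0.0478) were called in 1-361+362-549 cells. Sesn2, a leucine sensor that restrains mTORC1, had its widest difference in 1-361+362-549 cells, with levels of 2.08, 1.94 and 2.55 against 2.63, 2.27, 2.96 and 2.29 in WT cells (-0.35 ± 0.23, adjusted p = 0.45). Ppp1r15a, which directs phosphatase to eIF2 and so ends the response, read 3.19, 3.01, 3.19 and 2.71 in D361E cells against 3.06, 3.03, 3.61 and 3.34 in WT cells (-0.23 ± 0.18, adjusted p = 1). In both genes the lines overlapped.

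Amino acid synthesis had medians of -0.13, -0.42, -0.15 and 0.19, with 7 of 8 members below 0 in 1-361 cells and 5 of 8 above 0 in 1-361+362-549 cells. With 1 array left out they ran between -0.29 and 0.00, -0.53 and -0.25, -0.29 and 0.02, and 0.03 and 0.28. Cth was the gene that passed the test in either. Mthfd2, a mitochondrial folate enzyme, read 1.15, 0.73 and 0.68 in 1-361 cells against 1.76, 1.38, 1.47 and 1.58 in WT cells. Those arrays did not overlap, but the difference of -0.70 ± 0.21 missed the threshold (adjusted p = 0.319). Asns, the asparagine synthetase and a classic ATF4 target, differed by -0.23, -0.52, -0.22 and -0.23.

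The 4 transporters tested had medians of -0.04, -0.44, -0.24 and -0.13 and no call. With 1 array left out they ran between -0.11 and 0.14, -0.58 and -0.21, -0.38 and -0.03, and -0.28 and -0.02. Slc3a2 is the heavy chain that carries the light chains Slc7a5 and Slc7a11 to the surface. It read 4.39, 4.65 and 4.33 in 362-549 cells against 4.64, 4.69, 4.81 and 4.75 in WT cells (-0.27 ± 0.13, adjusted p = 0.629). Slc7a5, which brings in large neutral amino acids, read 1.57, 1.38 and 0.73 in 1-361 cells against 1.88, 1.76, 1.43 and 2.06 in WT cells (-0.56 ± 0.31, adjusted p = 0.715). Its other probe differed by 0.05. Slc7a11, the cystine importer, was not well above background on any array of 362-549 cells.

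The synthetases had medians of -0.19 in D361E cells (10 of 12 below 0), -0.27 in 1-361 cells (12 of 12), -0.14 in 362-549 cells (10 of 12) and 0.10 in 1-361+362-549 cells (7 of 12 above 0). Of all genes, 43.8%, 43.3%, 41.4% and 45.4% lay below 0 in these comparisons. Against 1-361 cells directly, 1-361+362-549 cells had a synthetase median of 0.40, with 11 of 12 above 0, and a synthesis median of 0.54, with 7 of 8 above 0, where all genes had a median of -0.04 and 52.7% of them lay below 0. The genes share arrays and are not replicates. In the fit without a block, Eprs and Iars were the synthetases of this group called in any comparison. Further ones were called with title-number round as a block. With 1 array left out the medians against WT ran between -0.27 and -0.05 in D361E, -0.39 and -0.15 in 1-361, -0.24 and 0.04 in 362-549 and 0.00 and 0.26 in 1-361+362-549 cells. With title-number round as a block Nars (0.43, adjusted p = 0.0138) and Iars rose and Sars (-0.43, adjusted p = 0.046) fell in 1-361+362-549 cells against WT. Within title-number rounds the synthetase median of 1-361 cells against WT was -0.23, -0.17 and -0.42, and without the arrays numbered 14 to 18 it was -0.19. Within slides it was -0.71 on slide 3 and 0.12 on slide 6, and each of these slides sets an array numbered 14 to 18 beside one of the first round (arrays 16 and 2, and 4 and 14). Without scaling of the arrays the median of all genes itself moved to -0.19 in 1-361 cells and 0.23 in 1-361+362-549 cells against WT, and the synthetase medians to -0.51 and 0.29.

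**Figure D2:**
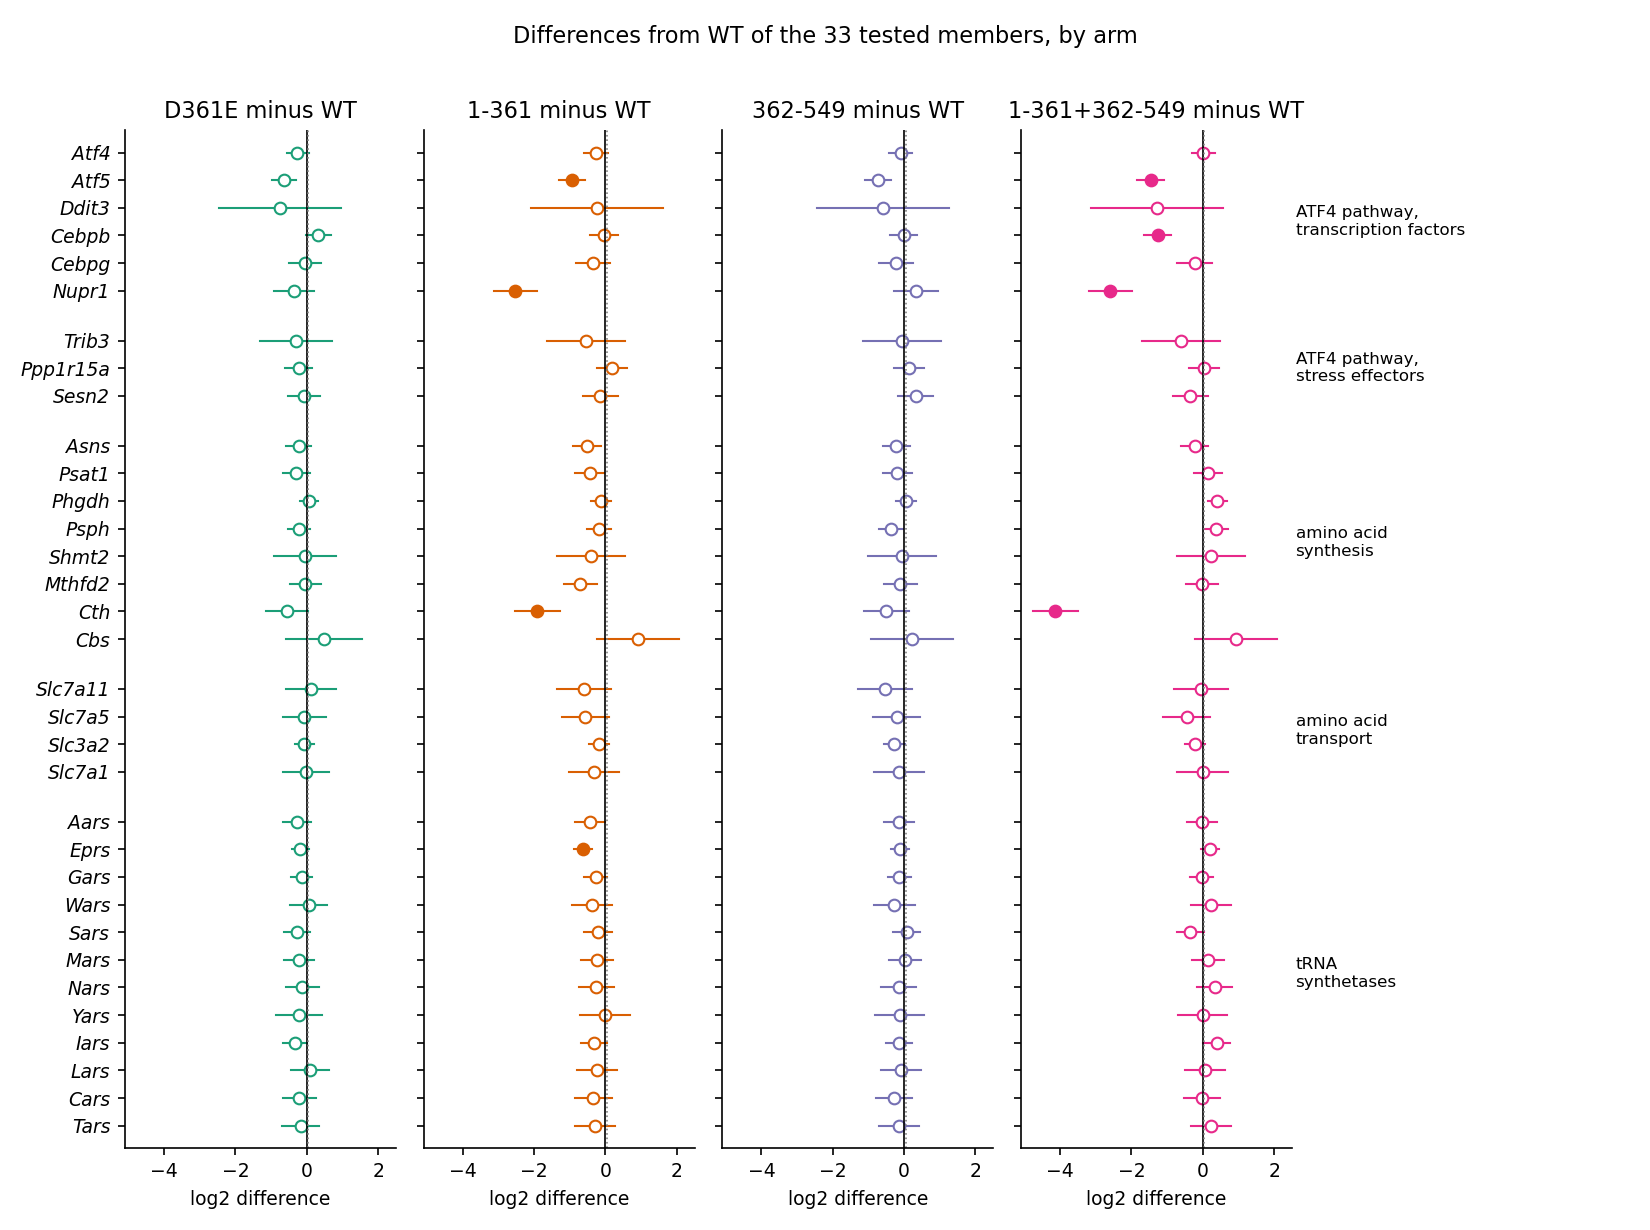
Log2 difference from WT of the 33 tested members in D361E, 1-361, 362-549 and 1-361+362-549 cells, grouped by role, with 95% intervals; filled points passed an adjusted p of 0.05 and the dotted line is the median of all genes. Most intervals cover 0, and the filled points are Nupr1, Cth, Atf5 and Eprs in 1-361 cells and Cth, Nupr1, Atf5 and Cebpb in 1-361+362-549 cells.

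The arrays numbered 14 to 18 moved the groups of genes in different directions. Set against the mean of the first and second rounds of the same construct, 4 members were higher on all 5 of these arrays (Ddit3, Trib3, Cebpg and Cth), and 14 were lower on all 5, where 21.4% and 20.5% of all genes did so. Ddit3 was higher by 0.71 in D361E, 1.19 in 1-361, 2.92 in 362-549, 2.12 in 1-361+362-549 and 2.58 in WT cells. Trib3, a pseudokinase that CHOP and ATF4 induce, was higher by 0.35, 1.00, 0.88, 1.92 and 1.46 in that order. The WT arrays show the size of this: Ddit3 read 2.74 on the WT array numbered 14 and 0.17, 0.15 and -0.31 on the other 3, and Trib3 read 5.50 there and 4.14, 3.93 and 3.50 on the others.

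The 14 lower members included 9 of the 12 synthetases, the serine and one-carbon genes Shmt2, Psat1 and Mthfd2, and the transporters Slc7a5 and Slc7a1. Shmt2, which moves a one-carbon unit from serine to folate in mitochondria, was lower by 0.57 to 1.20 on the log2 scale. Slc7a1, an importer of cationic amino acids, read 3.77 on the D361E array numbered 15 and 4.61, 4.53 and 4.56 on the other D361E arrays. Lars, the leucyl-tRNA synthetase, read 2.84 on the WT array of these numbers and 3.48, 3.26 and 3.26 on the other WT arrays. So on the same 5 arrays Ddit3 and Trib3 were high while most synthetases were low, with Atf4 between 6.52 and 7.02. Of 18 ATF6 and XBP1 targets of the unfolded protein response, 11 were higher on all 5 of these arrays, as were 6 of 21 other ATF4 targets, of which 4 were lower on all 5. What set these arrays apart was not tested, and no p-value is given because they were picked after their values were seen.

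**Figure D3:**
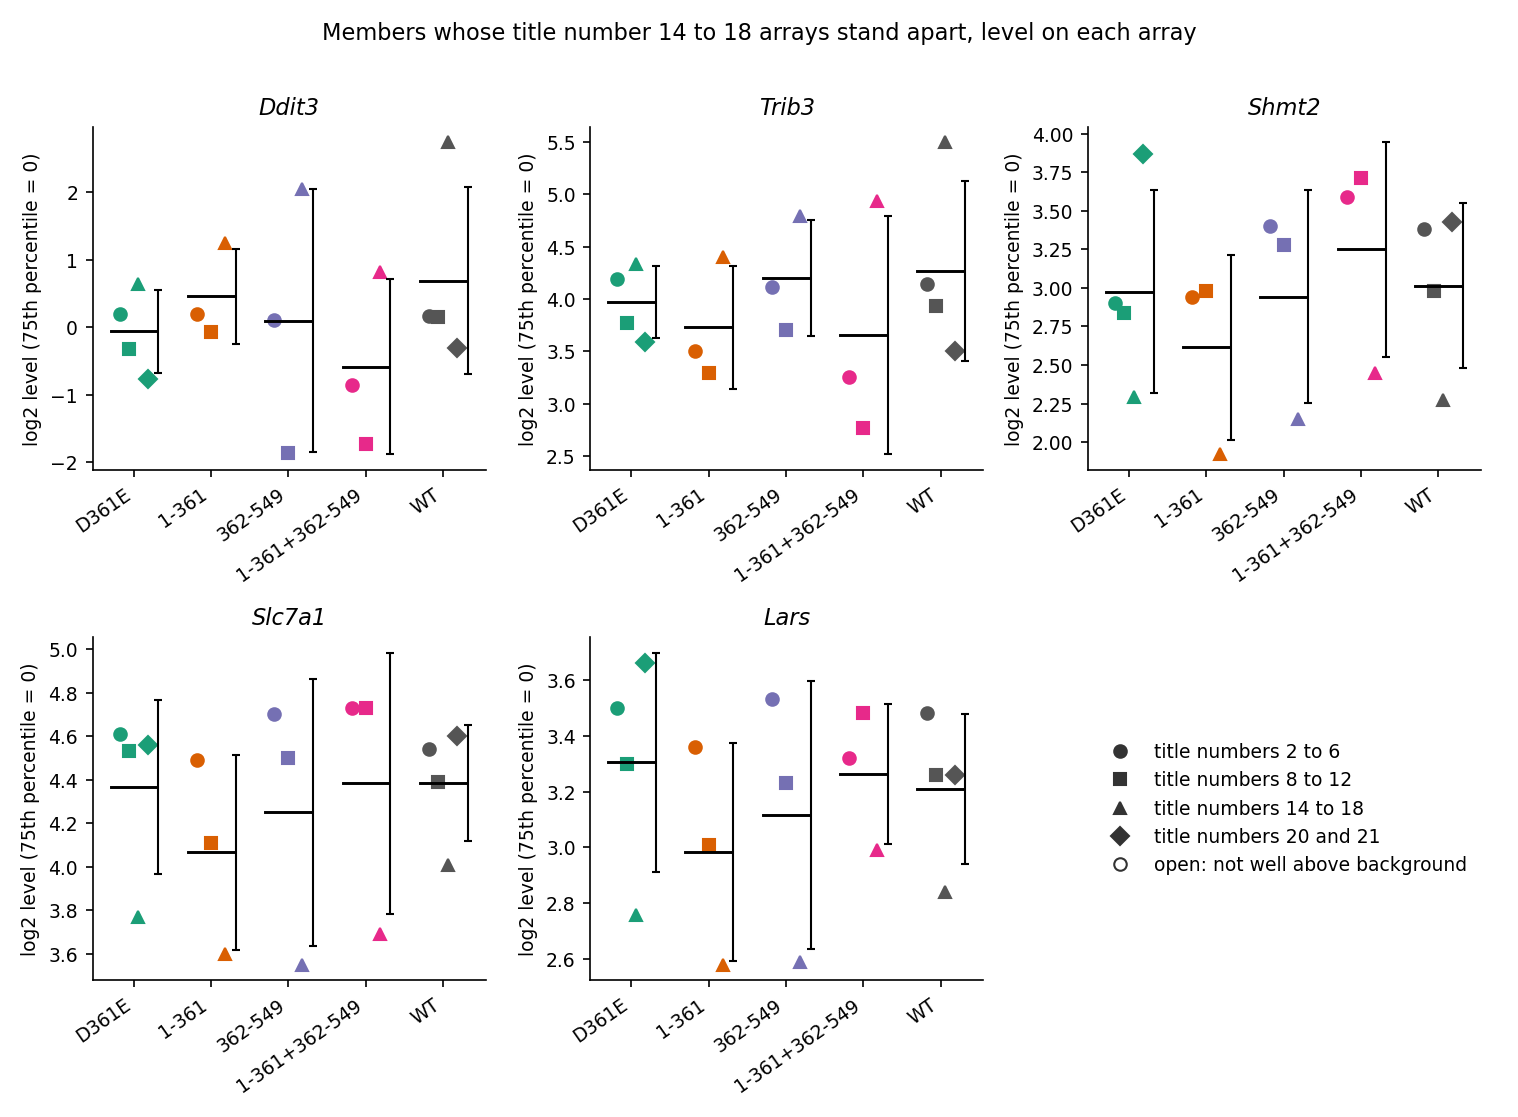
Level of Ddit3, Trib3, Shmt2, Slc7a1 and Lars on each array (log2 relative to the 75th percentile of the array) by construct, with WT at the right; marker shapes are the title-number rounds and bars and whiskers are the mean and SD. Within each construct the array numbered 14 to 18 is the highest for Ddit3 and Trib3 and the lowest for Shmt2, Slc7a1 and Lars.

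Of the genes around this programme, few were called against WT, as of all genes (0.487% to 5.13% by line). Of 15 genes for eIF2, its kinases and other parts of the eIF2 pathway (such as the Eif2b genes, Gcn1l1 and Ppp1r15b), 0 were called in any line. Limma's unadjusted p was under 0.05 for 1 of them in 1-361 cells and 2 in 1-361+362-549 cells. Of 21 further ATF4 targets tested, 1 fell: Slc6a9, a glycine transporter, read 1.59 ± 0.12 in 1-361+362-549 cells (SD, n = 3) and 2.63 ± 0.12 in WT cells (SD, n = 4), a difference of -1.04 ± 0.19 (adjusted p = 0.00336). The 11 other cytosolic synthetases, 16 mitochondrial synthetases, 9 other amino acid transporters, 18 ATF6 and XBP1 targets and 12 NRF2 targets held no call against WT in any line. In 1-361+362-549 cells against WT the 11 other cytosolic synthetases had a median of 0.25 (10 above 0) and the mitochondrial ones 0.18 (12 of 16). With title-number round as a block, where 30.7% of all genes were called in 1-361+362-549 cells against WT, the calls were 3 higher and 1 lower of the 15 eIF2 genes and 6 lower of the 21 further targets. They were 4 higher and 1 lower of the 11 other cytosolic synthetases, 4 higher of the mitochondrial ones, 2 higher and 1 lower of the transporters, 2 higher and 2 lower of the ATF6 and XBP1 targets and 3 higher and 2 lower of the NRF2 targets.

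**Figure D4:**
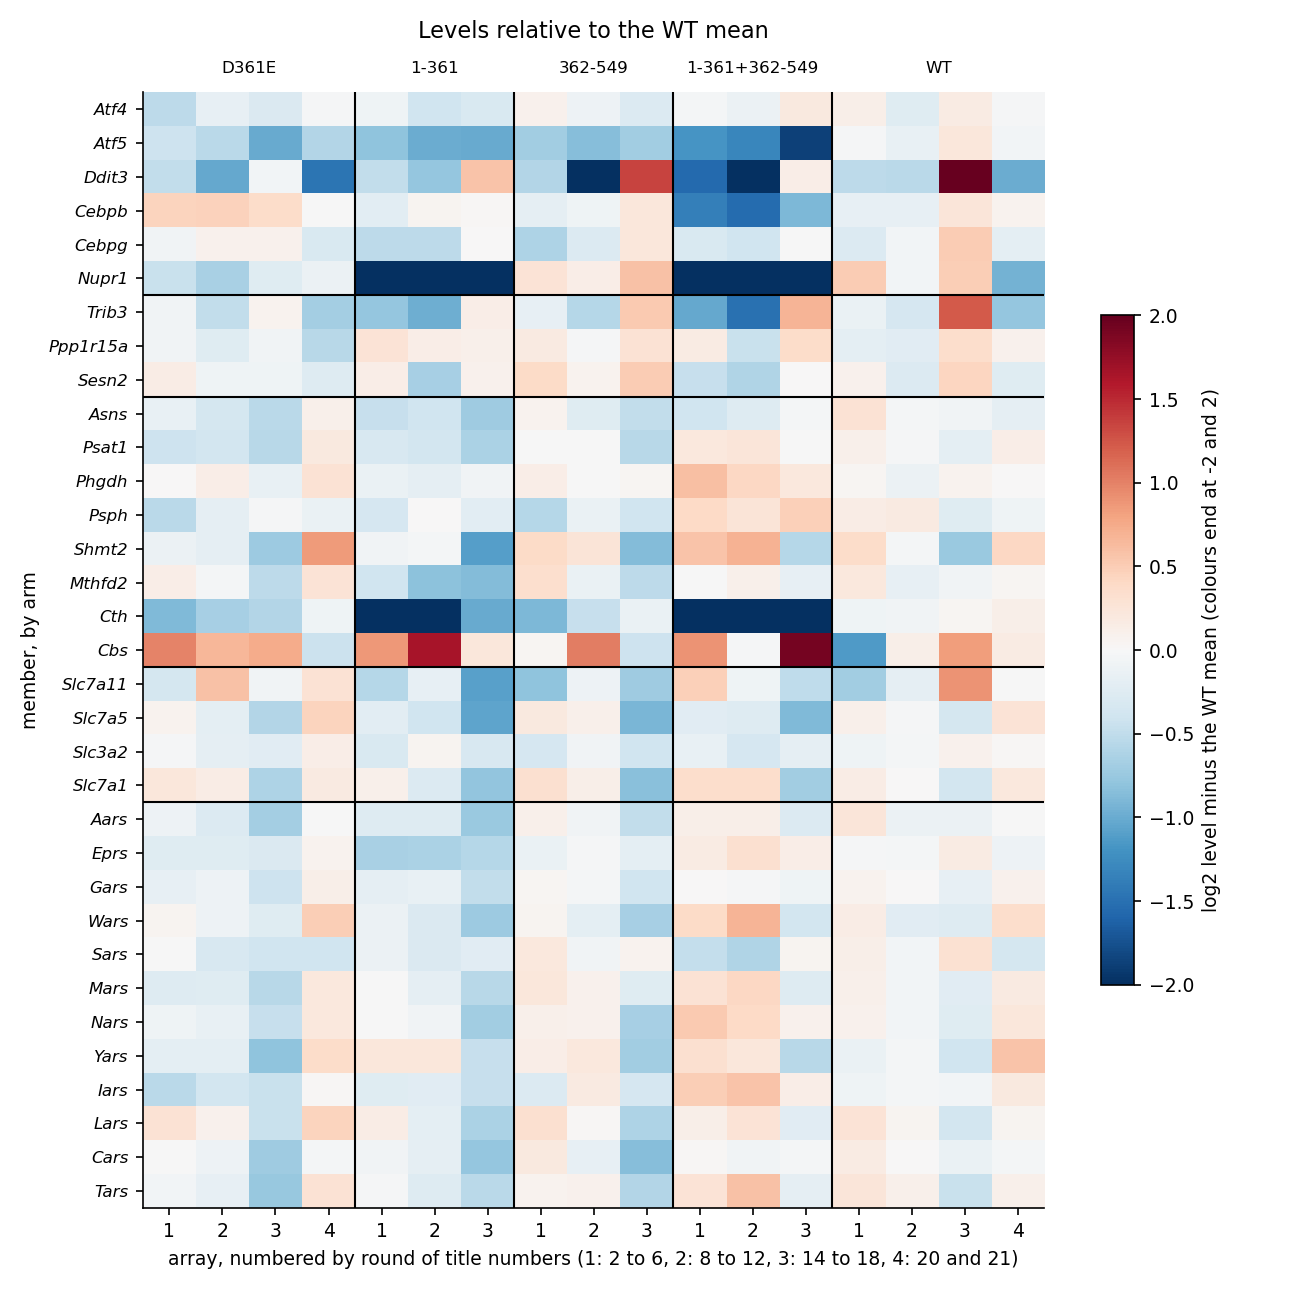
Level of the 33 tested members on each of the 17 arrays, as log2 difference from the WT mean of the gene, with genes grouped by role and arrays by construct, WT last; colours end at -2 and 2. The low values of Nupr1 and Cth in the lines with 1-361 and the separate pattern of the arrays numbered 14 to 18 can be seen.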

How the data were processed

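Total RNA of 17 samples was labelled with Cy3 and hybridised to 1-colour Agilent arrays of design 026655. Intensity values deposited by the authors came, per the file headers, from Agilent Feature Extraction 10.7.3.1 (build mm9), which also subtracts background. The deposited processed signals were used as log2 minus each array's 75th percentile. Probes were kept (19774 of 39429) if all arrays of 1 or more constructs read them well above background, the brightest probe stood for each gene name, and 15202 genes were tested. limma 3.58.1 (R 4.3.3) fitted all 5 constructs, with 10 pairwise comparisons and an F-test over the 4 with WT, moderated by eBayes, and Benjamini-Hochberg adjustment over all genes at 0.05. The steps were tested on simulated data. Alternatives changed scaling, background correction, probe filter, probe merging, slide or title-number round as a block, samples in the fit and each array in turn. The labels give no shared replicate number, so rounds of title numbers were taken as pairing only from the data: deviations from the construct means of same-round arrays correlated above 0.1 in 24 of 31 pairs, and in every pair for 4 of the 10 comparisons (D361E and 1-361+362-549 against WT, 1-361 and 1-361+362-549 against 362-549). For these the value with round as a block stands beside a result whose call or count it changes. Leaving out the arrays numbered 14 to 18 and merging probes by RefSeq symbol were chosen after seeing the data.

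Members and lists were chosen with earlier results of these data known. Array values are given for members called against WT and for the 2 members of each group with the smallest adjusted p. For some of these members certain lines are given as a range or left out. Up to 4 called genes are named from each other list. Ddit3, Trib3, Shmt2, Slc7a1, Lars, Psph, Phgdh and Asns were added after their values were seen. A megakaryocyte marker was left out of its list and is not reported here.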

Additional observations from a re-analysis of the deposited data

Results flagged for a closer look

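Among 66 pairs of a member and a construct with 4 arrays, 4 had an array far from the other 3 by Dixon's test, a test that chance passes in about 1 of 20 groups. Ddit3 read 2.74 on WT replicate 3, against -0.31 to 0.17 on the other WT arrays. On D361E replicate 3, Slc7a1 read 3.77, against 4.53 to 4.61 on the other D361E arrays, and Cars, the cysteinyl-tRNA synthetase, read 2.82, against 3.42 to 3.52. WT replicate 3 and D361E replicate 3 carry the title numbers 14 and 15. Eprs read 0.54 on D361E replicate 4, against 0.18 to 0.23 on the other D361E arrays.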

How the results depend on the processing

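Over 33 followed member differences, 27 of them called, no called difference changed sign under 12 alternative settings (11 for Cth, which was not well above background on all arrays) or with any of the 17 arrays left out in turn. Counts of called members moved by over 1.5 times as follows. Counts of all genes called, of 15202 tested unless stated, stand in brackets where given. In 1-361 against WT the count of 4 (109) became 1 with normexp background correction (31) and 1 with slide as a fixed block (39). It became 2 with only the 2 constructs in the fit (86). In 362-549 against WT the count of 0 (110) became 1, Atf5, without scaling (146) and 1 without the arrays numbered 14 to 18 (94). In 1-361 against D361E the count of 2 (156) became 1 with quantile normalization (173), normexp (29), slide as a fixed block (49) or 2 constructs in the fit (98). It also became 1 with probes well above background on all arrays (97 of 13620) or no filter (121 of 30125). In 1-361+362-549 against D361E the count of 6 (1476) became 10 without scaling (2605). It became 3 with normexp (446), slide as a fixed block (778) or 2 constructs (651). In 1-361 against 362-549 the count of 1 (96) became 2 with the mean of all probes (91) or without the arrays numbered 14 to 18. In 1-361+362-549 against 1-361 the count of 5 (1699) became 9 without scaling, 2 with normexp, and 3 with no filter, slide as a fixed block or 2 constructs. In 1-361+362-549 against 362-549 the count of 5 (2217) became 15 without scaling, 2 with normexp or slide as a fixed block and 3 with 2 constructs. The F-test count of 5 (1354) became 8 without scaling and 3 with normexp or slide as a fixed block. The share of all genes under these settings is not given here, so these F-test counts are not read as results about the members. Without scaling the median of all genes moved by up to 0.61, and so did the share of higher genes among all calls. Unscaled and scaled, it was 42% and 63.5% (D361E against WT), 44.2% and 56% (1-361 against WT), 21.2% and 37.3% (362-549 against WT), 19.3% and 32.7% (362-549 against D361E), 78.8% and 63.5% (1-361 against 362-549), and 86.2% and 44.6%, 86.4% and 41.7%, 94.2% and 38.9% (1-361+362-549 against D361E, 1-361 and 362-549).

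With 1 array left out, counts ran from 2 to 4 (1-361 against WT), 0 to 1 (362-549 against WT), 4 to 5 (1-361+362-549 against WT), 1 to 2 (1-361 against D361E and against 362-549), 4 to 9, 3 to 8 and 4 to 10 (1-361+362-549 against D361E, 1-361 and 362-549) and 5 to 7 (F-test). Genes called in all ran from 859 to 2738, 590 to 3878 and 875 to 4029 for 1-361+362-549 cells against D361E, 1-361 and 362-549. For the F-test they ran from 715 to 2101. Counts of members stayed at 0 for D361E against WT and 362-549 against D361E. With title-number round as a replicate block, the counts of 1-361+362-549 cells were 11 (against WT, with 30.7% of all genes called), 14 (D361E, 39.8%), 15 (1-361, 37.0%) and 14 (362-549, 39.9%). They were 2 for 1-361 against 362-549 (1.71%) and 15 for the F-test. The share of all genes for that F-test is not given here, so its count of 15 is not read as a result about the members. Round was not taken as pairing for 1-361+362-549 cells against D361E or against 1-361. In the 4 comparisons taken as paired the round block ended no call and changed no others than those named beside the results. Signal over background limits Cth, and none of its differences was called with normexp. Normexp also ended limma calls of members well above background on all arrays. In 1-361 cells against WT these included Atf5 (adjusted p = 0.472) and Eprs (0.457). In 1-361+362-549 cells they included Psph (against D361E, 0.181), Iars (against D361E, 0.117, and 1-361, 0.157) and the probe named Phgdh (against 1-361, 0.413).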
